A study of Mus musculus with 16 samples.

Results

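The circadian clock genes examined here were Per1, Per2, Per3, Arntl, Clock, Cry2, Nr1d1, Nr1d2, Dbp and Tef, taken by gene symbol. Of these 10 genes 9 were found, with 20 probe sets among 28898 that carry 1 symbol, and they stood among 17097 genes tested. Nr1d1 had no probe set with its symbol alone in the probe table and was not analysed here. Transcripts were measured in quadriceps muscle of 16 mice on Affymetrix arrays, with 1 mouse per array. The 4 groups of 4 mice were control mice aged 6 months (young), Mfn2 knockout (KO) mice aged 6 months, control mice aged 22 months (old) and Mfn2 KO mice aged 22 months. Mfn2 encodes mitofusin 2, which fuses mitochondria. All mice were kept on standard chow in a light and dark cycle of 12 h each. The hour at which each muscle was taken, the sex of the mice and the promoter of any Cre driver are not given in the sources used here.

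The circadian clock is a loop of transcription factors that runs in most cells, skeletal muscle fibres included. The proteins of Arntl (also called BMAL1) and Clock pair up and bind E-boxes in DNA, where they activate the Per and Cry genes, the Nr1d genes and the output factors Dbp and Tef. PER and CRY proteins return to repress the pair, and NR1D proteins repress Arntl through RORE sites. DBP and TEF in turn bind D-boxes. In muscle sampled through the day Arntl is known to peak at about the time when Dbp and the Per genes are low, and Dbp has among the widest daily swings of any transcript.

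The promoter sequences of these genes were searched for the sites through which the loop is known to act. RefSeq windows on assembly GRCm38.p6, from 250 bases before to 50 bases after each annotated start, were available for 9 of the 10 genes. The motifs, read on both strands, were the E-box CACGTG, the E-prime box CACGTT, the D-box TTATGTAA or TTACGTAA and the RORE core TAGGTCA or TGGGTCA. Among all 32851 windows of 27025 genes, 7.15% held an E-box, 4.68% an E-prime box, 1.06% a D-box and 6.45% a RORE core. Per1 held an E-box 166 bases before its start, in 1 of 2 windows, and both windows of Tef held one, 127 and 138 bases before the start. Cry2 held an E-prime box 166 bases before its start, and Nr1d1 one 28 bases before. Per3 held a pair of D-boxes, 205 and 158 bases before its start. Arntl held a RORE core 31 bases after its start in 1 of 2 windows. The windows of Dbp, Nr1d2 and Clock held no match, which says only that these letters were not in these windows. Upstream bases of Per1 and Per3, and 30 bases around the Arntl site, are given as examples. They show an E-box, the pair of D-boxes and a RORE core, motifs known to be bound by an activator, an output factor and a repressor. These are matches of letters, and whether a factor binds or acts at them in this muscle was not tested. Capitals mark the motif, and each run is 5′ to 3′ on the strand of the gene.
Per1, chr11:69098699-69098948, plus strand: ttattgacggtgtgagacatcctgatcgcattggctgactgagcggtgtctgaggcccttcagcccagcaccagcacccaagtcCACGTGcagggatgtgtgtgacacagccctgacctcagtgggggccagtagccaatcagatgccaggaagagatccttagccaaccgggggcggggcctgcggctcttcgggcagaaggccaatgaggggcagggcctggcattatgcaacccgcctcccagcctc
Per3, chr4:151044666-151044915, minus strand: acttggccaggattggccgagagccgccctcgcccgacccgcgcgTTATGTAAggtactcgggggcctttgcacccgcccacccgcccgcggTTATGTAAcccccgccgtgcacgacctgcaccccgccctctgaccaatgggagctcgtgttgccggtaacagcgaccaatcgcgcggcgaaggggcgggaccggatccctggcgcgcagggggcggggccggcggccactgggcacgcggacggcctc
Arntl, chr7:113207529-113207558, plus strand: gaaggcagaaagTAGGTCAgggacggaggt

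Some facts of the whole series bear on the clock genes. Values were log2 signals, and array medians lay between 4.58 and 4.65. The spread of values inside an array went with the replicate number, since the standard deviation (SD) was 1.89 to 1.94 for numbers 1 and 2 and 1.70 to 1.81 for numbers 3 and 4. Xist, the RNA of the silenced X chromosome, was at most 4.12 in numbers 1 and 2 and at least 5.47 in numbers 3 and 4 (8 arrays each). What a number stands for is not stated, and each group held 1 array of each number, so every comparison was also fitted with the number as a block. Mfn2 averaged 8.80 ± 0.60 in young control, 8.45 ± 0.07 in young KO, 8.68 ± 0.36 in old control and 7.74 ± 0.96 in old KO muscle (log2, SD, n = 4 each). The KO and control ranges of Mfn2 overlapped in young mice, where control replicate 3 (8.03) lay below all 4 mice labelled KO (8.38 to 8.54), so the young KO arrays showed no clear loss of the transcript. In old mice the ranges did not overlap, and replicate 3, at 6.32, was by far the lowest of the KO. The tissue label matched muscle markers: Ckm, Acta1, Tnnt3, Mb, Myh4 and Myh1 had group means from 11.5 to 12.7. In a piece of whole muscle fewer cells of a type and less RNA per cell cannot be told apart.

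Among the activators, Arntl varied widely between mice. Its signal was dim, with a mean of 4.91 beside a median of 5.15 over all genes. In young control muscle its log2 levels were 4.82, 5.01, 4.92 and 3.71 in replicates 1 to 4, and in young KO muscle 4.69, 5.71, 4.83 and 3.73. In old control muscle they were 4.87, 5.78, 5.32 and 5.42, and in old KO muscle 6.06, 4.99, 4.59 and 4.15. The lowest Arntl values of the series were thus the pair of young mice with number 4, and the highest was old KO replicate 1, while all 4 groups overlapped. Clock, the partner of Arntl, was steadier by its brightest probe set, from 5.01 in old control replicate 3 to 5.83 in old control replicate 2. The group means of that probe set lay between 5.36 and 5.48, closer together than the SD within any group, which ranged from 0.18 to 0.34. Another Clock probe set, nearly as bright, ran from 4.79 in young control replicate 3 to 6.12 in young control replicate 2.

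**Figure D1:**
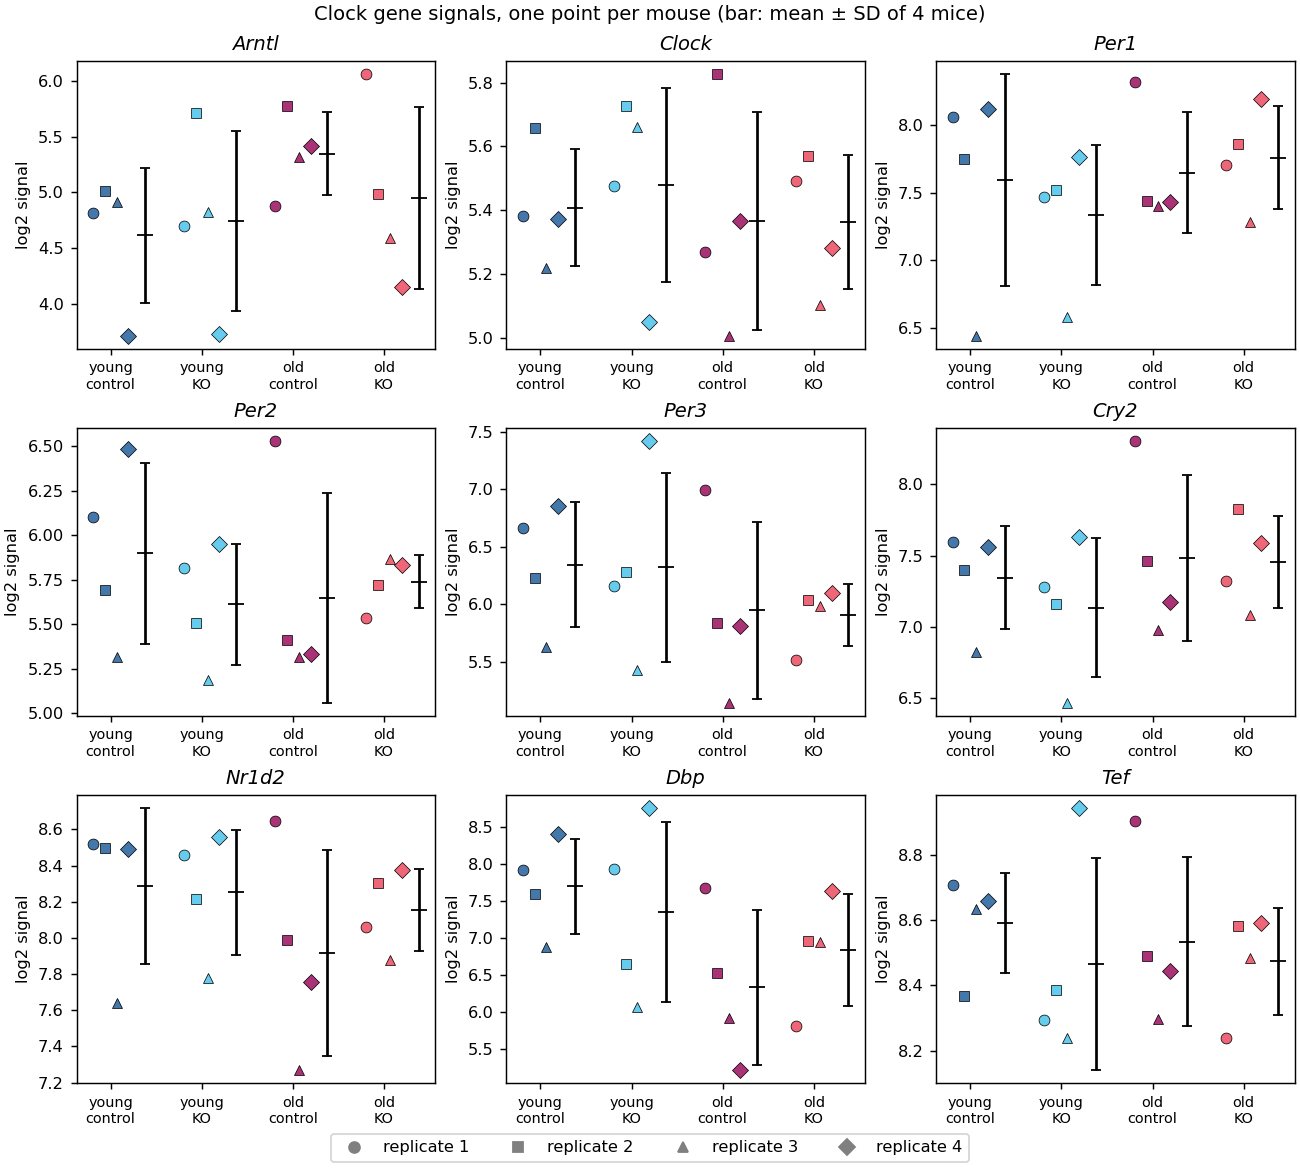
Levels of the 9 clock genes in each mouse. Each panel is 1 gene with the log2 signal on the vertical axis and the 4 groups on the horizontal axis; points are mice, their shape gives the replicate number, and the bar to the right of each group is its mean with SD (n = 4). The groups overlapped for every gene, and Dbp had the widest range, from 5.22 to 8.76.

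The repressors Per1, Per2, Per3 and Cry2 varied from mouse to mouse, with overlapping groups for each. Per1 read 8.06, 7.75, 6.44 and 8.12 in young control and 7.47, 7.52, 6.58 and 7.77 in young KO muscle. In old mice Per1 read 8.32, 7.44, 7.40 and 7.43 in controls and 7.71, 7.86, 7.28 and 8.19 in KO muscle. The lowest Per1 value was replicate 3 in each of the 4 groups, and in old controls replicates 2, 3 and 4 lay together below replicate 1. Per2 ranged from 5.18 in young KO replicate 3 to 6.53 in old control replicate 1. Per3 ranged from 5.14 in old control replicate 3 to 7.42 in young KO replicate 4. Cry2 ranged from 6.46 in young KO replicate 3 to 8.30 in old control replicate 1. Old control replicate 1 was therefore the highest mouse of the series for Per1, Per2 and Cry2. For Per3 it stood second.

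Nr1d2, a nuclear receptor that represses Arntl and is also called REV-ERB beta, read 8.52, 8.49, 7.64 and 8.49 in young control and 8.46, 8.22, 7.78 and 8.56 in young KO muscle. It read 8.65, 7.99, 7.27 and 7.76 in old control and 8.06, 8.30, 7.88 and 8.38 in old KO muscle. Replicate 3 was the lowest mouse in each of the 4 groups, old control replicate 1 was again the highest of the series, and the groups overlapped.

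Of the output factors, Dbp had the widest spread of all clock genes. It read 7.93, 7.59, 6.89 and 8.41 in young control and 7.94, 6.65, 6.07 and 8.76 in young KO muscle. It read 7.68, 6.53, 5.92 and 5.22 in old control and 5.82, 6.96, 6.95 and 7.64 in old KO muscle. In the old controls 3 of 4 mice lay below every young control, but replicate 1, at 7.68, lay among them. The old KO mice differed in order from the old controls: replicate 1 was their lowest and replicate 4 their highest. By its brightest probe set Tef, the relative of Dbp, stayed between 8.24 and 8.94 in all 16 mice. The second Tef probe set ran more widely, from 6.70 in young KO replicate 3 to 8.19 in old control replicate 1.

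The first comparison asked whether clock genes differed between mice labelled Mfn2 KO and controls at either age. No clock gene differed beyond the spread between mice. In young mice KO minus control ranged over the 9 genes from -0.35 for Dbp (95% interval -1.62 to 0.91) to 0.13 for Arntl (-0.78 to 1.04), on the log2 scale. In old mice it ranged from -0.40 for Arntl (-1.31 to 0.51) to 0.51 for Dbp (-0.76 to 1.77). Nr1d2 differed by -0.03 in young mice (-0.60 to 0.54) and by 0.24 in old mice (-0.33 to 0.81). For the other 6 genes the differences lay between -0.28 and 0.07 in young mice and between -0.06 and 0.11 in old mice. The intervals were widest for Dbp, while for Tef the interval in young mice ran from -0.47 to 0.22. By limma, fitted across all genes with Benjamini-Hochberg adjustment, 0 of 9 clock genes passed an adjusted p of 0.05 in young and 0 of 9 in old mice, and of all genes 0% passed in either. At an unadjusted p under 0.05 the clock genes were again 0 in both, where 1.7% of all genes passed in young and 1.14% in old mice. With the replicate block the counts were still 0 and 0 unadjusted, against 9.43% and 6.62% of all genes. These p-values measure the spread between the mice sampled here, and their number limits the precision.

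The second comparison asked whether clock genes differed between 6 and 22 months. In control muscle Dbp averaged 7.70 ± 0.64 in young and 6.34 ± 1.04 in old mice (log2, SD, n = 4 each). Old mice thus had 2.58-fold less. The log2 difference was -1.37 (standard error, SE, 0.59, 95% interval -2.63 to -0.10) with a limma unadjusted p of 0.0359, and it did not pass after adjustment over all genes (adjusted p = 0.9999). Dbp was lower in the old control than in the young control of the same number in 4 of 4 numbers. Arntl went the other way, at 4.61 ± 0.60 in young and 5.35 ± 0.37 in old controls (log2, SD, n = 4 each), a log2 difference of 0.73 (SE 0.43, -0.18 to 1.64, limma unadjusted p = 0.106), and was higher in the old mouse of 4 of 4 numbers. Nr1d2 differed by -0.37 (SE 0.27, -0.94 to 0.20) and was lower in the old mouse of 3 of 4 numbers. With the replicate block the SE fell to 0.54 for Dbp, 0.32 for Arntl and 0.16 for Nr1d2. The unadjusted p-values of limma with the block were 0.0230, 0.0361 and 0.0339, and the adjusted ones 0.445, 0.484 and 0.480, so none passed. With family, a further label of the mice, fitted beside the block the difference was -2.37 for Dbp (limma unadjusted p = 0.0192, adjusted p = 0.664). For Arntl it was 1.06 (limma unadjusted p = 0.0581). Both were larger than without family, but family went with age: A and B held old mice alone, C and D young mice alone. These values therefore rest only on the mice outside families A to D, and do not describe all mice. Of the 36 intervals of the 9 genes in the 4 comparisons of 2 groups, 1 left out 0, that of Dbp in controls, and 3 did so with the block, those of Dbp, Arntl and Nr1d2 in controls.

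Ageing was then compared in KO muscle. Dbp averaged 7.35 ± 1.22 in young and 6.84 ± 0.76 in old KO mice (log2, SD, n = 4 each), a difference of -0.51 (-1.77 to 0.76), and was lower in the old mouse of 2 of 4 numbers. Arntl differed by 0.21 (-0.70 to 1.11) and was higher in 2 of 4 numbers. Nr1d2 differed by -0.10 (-0.67 to 0.47). These values depended on the setting. With the block and family the difference was -1.94 for Dbp (limma unadjusted p = 0.0460, adjusted p = 0.768) and 1.06 for Arntl. These too rest only on the mice outside families A to D. With array weights the difference was -1.16 for Dbp (limma unadjusted p = 0.0329, adjusted p = 0.799). Without young KO replicate 4 the Dbp difference was -0.04, and without young KO replicate 3 it was -0.94. Per1 had the highest value among the 9 genes, at 0.43 (-0.33 to 1.18), and Per3 stood at -0.41 (-1.28 to 0.45), much as in controls, where it was -0.40 (-1.26 to 0.47). Whether age acted differently in the genotypes was tested by the interaction, old minus young in KO less old minus young in control. It was 0.86 for Dbp (SE 0.84, -0.93 to 2.65, limma unadjusted p = 0.324) and -0.53 for Arntl (SE 0.60, -1.81 to 0.76, limma unadjusted p = 0.396), so a difference between the genotypes was not shown. With the block and family it was 0.43 for Dbp and -0.0045 for Arntl.

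Over both genotypes Dbp was 1.92-fold lower in old muscle, a log2 difference of -0.94 (SE 0.42, -1.83 to -0.04, limma unadjusted p = 0.0409, adjusted p = 0.9999), and was lower in the old mouse of 6 of 8 pairs of the same number. With the replicate block the unadjusted p was 0.0266 by limma and the adjusted p 0.342. With family added the difference was -2.15 (limma unadjusted p = 0.0118, adjusted p = 0.498), again resting only on the mice outside families A to D. Arntl was higher by 0.47 (SE 0.30, -0.17 to 1.11) and in 6 of 8 pairs. The other genes, Nr1d2 left aside, lay between -0.40 for Per3 and 0.24 for Per1. Over both ages KO and control differed by -0.14 for Arntl and by 0.08 for Dbp (-0.82 to 0.97).

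Counted over the list, 0 of 9 clock genes passed an adjusted p of 0.05 by limma in any age comparison, the interaction or genotype over both ages. Of all genes 0% passed for age in controls, 0.0175% for age within the KO mice and 0.0585% for age over both genotypes, and 0% for the interaction and for genotype over both ages. With the replicate block the clock genes called were again 0 of 9 in each, against 0.0468% of all genes for age in controls, 0.0234% within the KO mice and 0.579% over both genotypes, and 0% for the interaction and genotype over both ages. At an unadjusted p under 0.05, 1 clock gene (Dbp, lower) passed for age in controls, where 2.12% of all genes passed and 0.936% with a lower level. The count was 1 (Dbp, lower) for age over both genotypes, against 3.52% of all genes and 1.66% lower. It was 0 for age within the KO mice, for the interaction and for genotype over both ages, against 2.59%, 1.13% and 1.55%. With the block 3 of 9 passed unadjusted for age in controls, 1 higher and 2 lower, against 9.64% of all genes, 4.66% higher and 4.98% lower. For age over both genotypes it was 1, against 11.7% of all genes. For age within the KO mice, the interaction and genotype over both ages it was 0, against 10.2%, 7.24% and 8.47%. The 9 genes had a median difference of -0.06 for age in controls, 3 higher and 6 lower, beside a median of -0.01 over all genes. No clock gene had groups that did not overlap, against 1.36%, 0.907%, 1.52% and 1.8% of all genes for genotype in young, genotype in old, age in control and age in KO mice. With 8 against 8 mice it was 0.00585% for genotype and 0.105% for age. The comparisons share groups with each other, so their values are not independent.

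**Figure D2:**
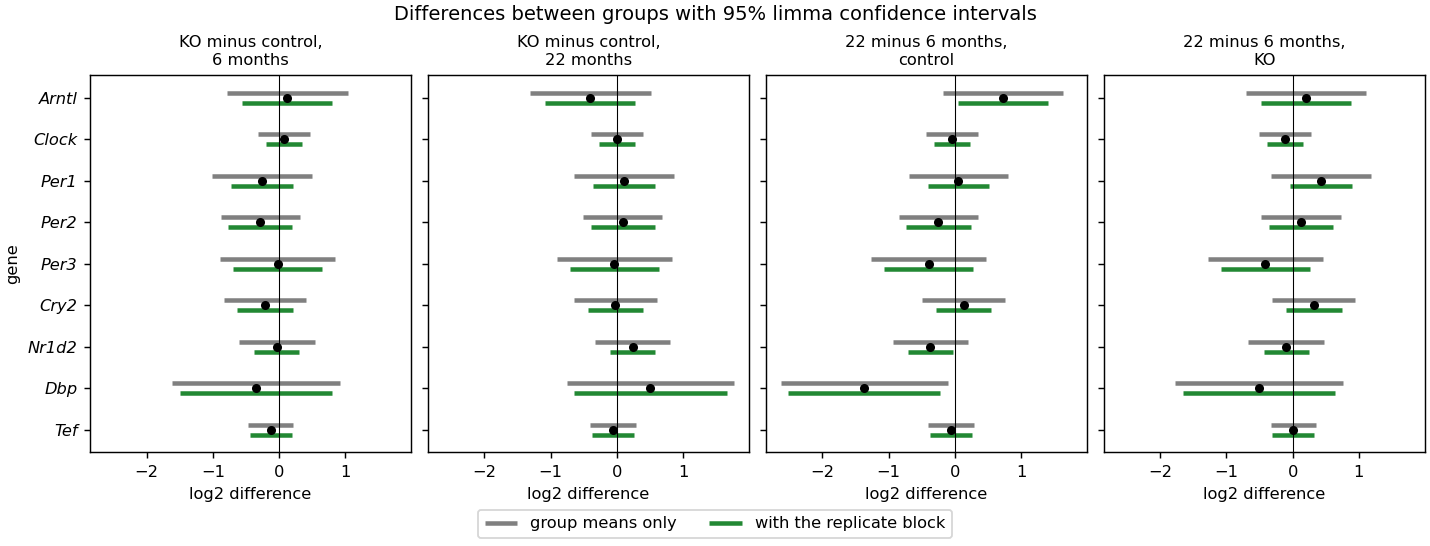
Log2 differences of the 9 clock genes, with 1 panel for each of the 4 comparisons of 2 groups. Points are differences on the horizontal axis, and lines are 95% intervals from limma, grey with group means only and green with the replicate block. The interval of Dbp for age in control mice, -2.63 to -0.10, is the only one of the 36 for 2 groups that leaves out 0 without the block.

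The probe sets of the same gene did not always read alike. Dbp, Per1 and Cry2 had 1 probe set each, and the other genes were represented by the brightest of 2 or more. The second Arntl probe set followed the brightest over the 16 arrays with r = 0.887, and its difference for age in controls was 0.32. The second Nr1d2 probe set, with r = 0.818, gave 0.10, opposite in sign to the brightest. The second Tef probe set, with r = 0.796, gave -0.29, beside -0.06 for the brightest. The 4 other Per3 probe sets, with r from 0.458 to 0.925, gave differences from -0.44 to -0.11, all in the direction of the brightest. Among the 11 further probe sets, 8 had the sign of the brightest for age in controls and 3 the opposite one.

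Most clock genes differed between single mice more than most genes did. The range over the 16 arrays was 3.53 for Dbp, or 11.6-fold, 2.35 for Arntl, 2.27 for Per3, 1.88 for Per1 and 1.84 for Cry2 on the log2 scale, beside a median of 0.75 over all genes. The SD within groups was 0.94 for Dbp, above that of 99.7% of all genes, and 0.68 for Arntl, above 98.6%. Per3, at 0.64, stood above 98.1% and Per1, at 0.55, above 95.9%. By their brightest probe sets Tef, with an SD of 0.24, and Clock, with 0.27, lay nearer the median of 0.23, above 52.9% and 61.2% of genes. For both genes another probe set ranged more widely. With group and replicate number both removed, the SD of the 9 genes stood above that of 84.4% (Clock) to 99.9% (Dbp) of all genes. These ranks describe the arrays and were not tested. They were taken over genes of every level, dim ones included, and level was not matched. The mean levels of the clock genes stood from the 44.8th percentile of all genes (Arntl) to the 90.6th (Tef), with Dbp at the 78.9th.

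The share of the variation that followed the replicate number differed between the genes. For Nr1d2 60.9% of the sum of squares lay between numbers and 13.9% between groups, and for Per1 60.3% and 9.65%. For Dbp the number took 17.7%, the group 28.6% and the remaining differences between mice 53.7%. For Tef 74.4% remained. Over all genes the medians were 61.5% for the number, 9.58% for the group and 25.0% for the rest, so that Dbp had more between groups and less between numbers than the median gene. The means of Nr1d2 by number were 8.42, 8.25, 7.64 and 8.30 for numbers 1 to 4, and those of Per1 7.89, 7.64, 6.93 and 7.88. Both were lowest in number 3. Arntl was lowest in number 4, with means of 5.11, 5.37, 4.91 and 4.25. By limma's F test of the number 5 of 9 clock genes passed an adjusted p of 0.05 (Arntl, Clock, Per1, Cry2 and Nr1d2), against 66.6% of all genes, so the count was no higher than in the background. With quantile normalization of the values this count was 0, against 43.9% of all genes, and with family fitted beside the number it was 0, against 53.5%.

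**Figure D3:**
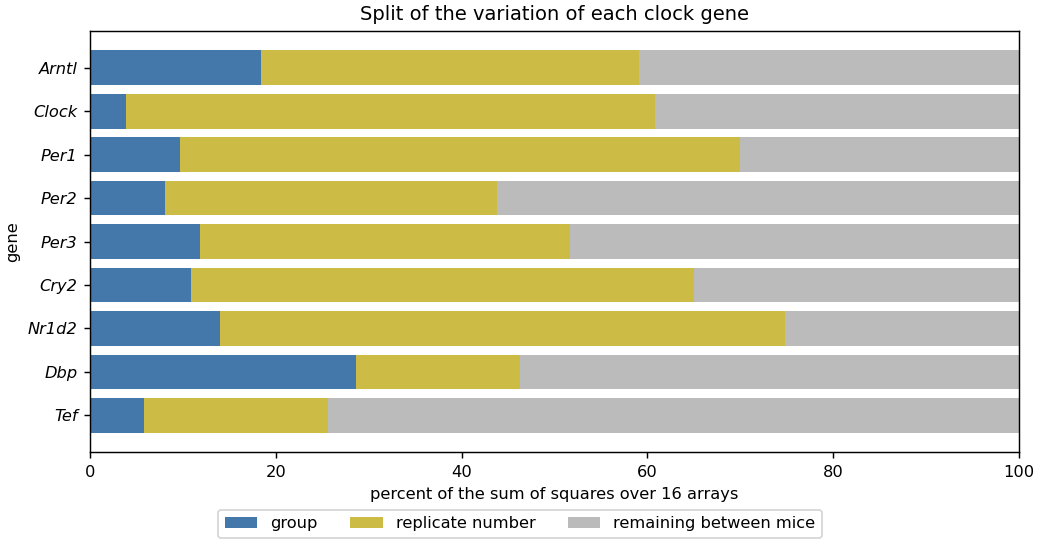
Split of the variation of each clock gene over the 16 arrays. Each bar is 1 gene and sums to 100% of its sum of squares, divided into group, replicate number and the remaining differences between mice. Dbp had the most between groups (28.6%) and Nr1d2 the most between numbers (60.9%).

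Apart from Clock, most of the 9 clock genes varied together across mice. Arntl tended to the opposite direction, though not every pair with a repressor passed. All 36 pairs of the 9 genes were compared over the 16 arrays with permutation tests of 100000 resamples and adjustment over the 36 pairs, and 21 passed an adjusted p of 0.05. How many pairs of other genes would pass was not counted. Over all genes, with group means subtracted, arrays of a shared number correlated with a median of 0.677. Among the 7 genes other than Arntl and Clock, all 21 pairs correlated positively, with Pearson r from 0.458 to 0.880 and a median of 0.748, and 17 passed. The highest was Per1 with Cry2 (r = 0.880, permutation p = 1e-05, the smallest that the resamples can give, adjusted p = 0.00036; Spearman rho = 0.900, permutation p = 2e-05, adjusted p = 0.00036). Without the pair of arrays farthest from the median of Per1, r was 0.827. Per3 with Dbp gave r = 0.834 and Nr1d2 with Dbp r = 0.792. Within the 8 arrays of numbers 1 and 2 the 21 values lay between 0.329 and 0.892, and within numbers 3 and 4 between 0.433 and 0.915. With number means removed and arrays permuted within numbers 10 of the 21 passed, so the others were not shown to hold apart from the number.

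Arntl correlated negatively with all 7 of these genes, from -0.219 with Cry2 to -0.779 with Dbp. The pairs with Per2 (r = -0.588), Per3 (r = -0.613), Dbp and Tef (r = -0.577) passed, with adjusted permutation p-values of 0.0293, 0.0223, 0.00184 and 0.0332. For Arntl and Dbp the permutation p was 0.00041, Spearman rho was -0.791 (permutation p = 0.00055, adjusted p = 0.0018), and r was -0.703 without the pair of arrays farthest from the median of Arntl. Within numbers 1 and 2 that r was -0.949, within numbers 3 and 4 it was -0.967, and with number means removed it was -0.946 (permutation p = 0.00045, adjusted p = 0.0054). The pair held within numbers 1 and 2 and within numbers 3 and 4, and more tightly than over all of them. The second Arntl probe set gave a weaker r of -0.547 with Dbp over all arrays. Arntl and Nr1d2 gave r = -0.439 over all arrays, which did not pass (adjusted permutation p = 0.119), and -0.921 with number means removed (permutation p = 0.00019, adjusted p = 0.00468). With number means removed the Arntl pairs that passed were those with Per2, Per3, Nr1d2 and Dbp. The pairs of Arntl with the repressors Per1 and Cry2 passed in neither reading. Over all arrays their r was -0.258 (adjusted permutation p = 0.403) and -0.219 (adjusted permutation p = 0.480).

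**Figure D4:**
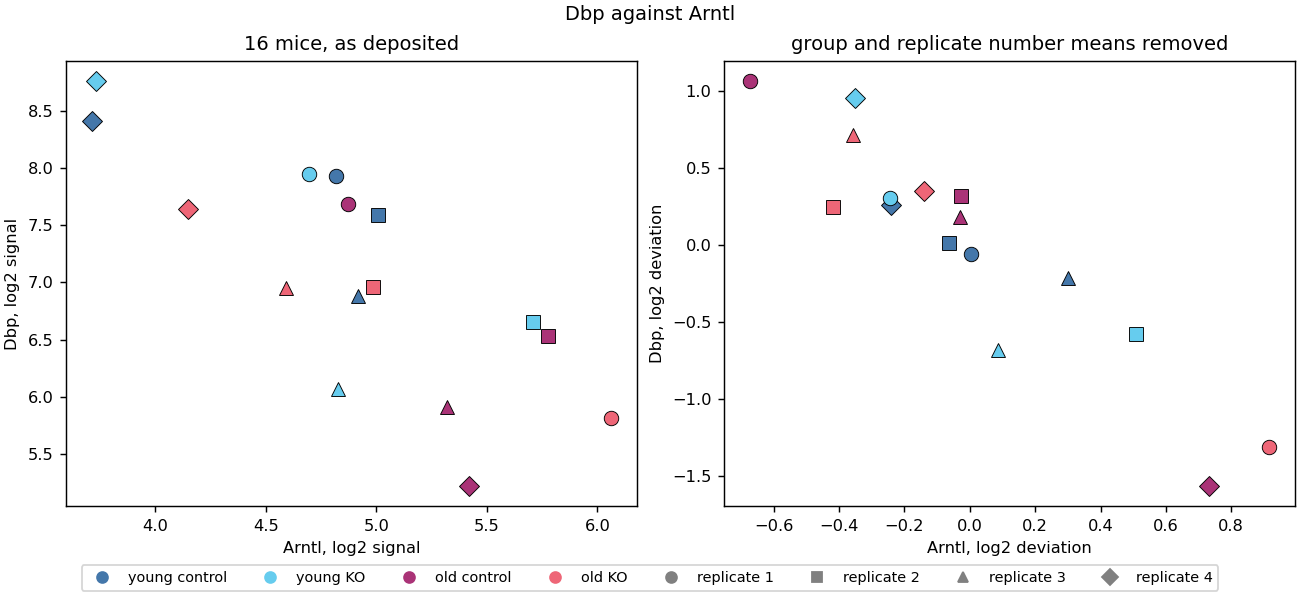
Dbp against Arntl in each of the 16 mice. Colours mark the groups and symbols the replicate numbers; axes are log2 signals on the left, and on the right log2 deviations after group and number means were removed (r = -0.929). On the left, mice with high Arntl had low Dbp (r = -0.779), with young KO replicate 4 at 3.73 and 8.76 and old KO replicate 1 at 6.06 and 5.82 near opposite ends.

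Some single mice with extreme values show the pattern. Young KO replicate 4 had the highest Dbp of the series (8.76) and the highest Per3 (7.42), with Arntl at 3.73. Old KO replicate 1 had the highest Arntl (6.06), with Dbp at 5.82 and Per3 at 5.51. Old control replicate 4 had the lowest Dbp (5.22), with Arntl at 5.42. These mice belong to both ages and both genotypes. Other extreme mice did not show it. Old control replicate 1 had the highest Per1, Per2, Cry2 and Nr1d2, with Arntl at 4.87, near its mean of 4.91. Young KO replicate 3 had the lowest Per2 and Cry2, with Arntl at 4.83.

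By its brightest probe set Clock, though the partner of Arntl, followed neither set closely. Its r with the 7 genes lay between -0.423 and 0.183 and 0 of 7 pairs passed, and with number means removed 1 passed, that with Cry2 (r = -0.679). Arntl and Clock correlated at 0.487, which did not pass (adjusted permutation p = 0.0823). The other 3 Clock probe sets correlated with the brightest between -0.0985 and 0.678, so the reading of Clock depended on the probe set. Their r with Arntl was 0.649, 0.752 and 0.364, and with Dbp -0.200, -0.257 and -0.379, from the brightest of them to the dimmest. These values were not tested.

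**Figure D5:**
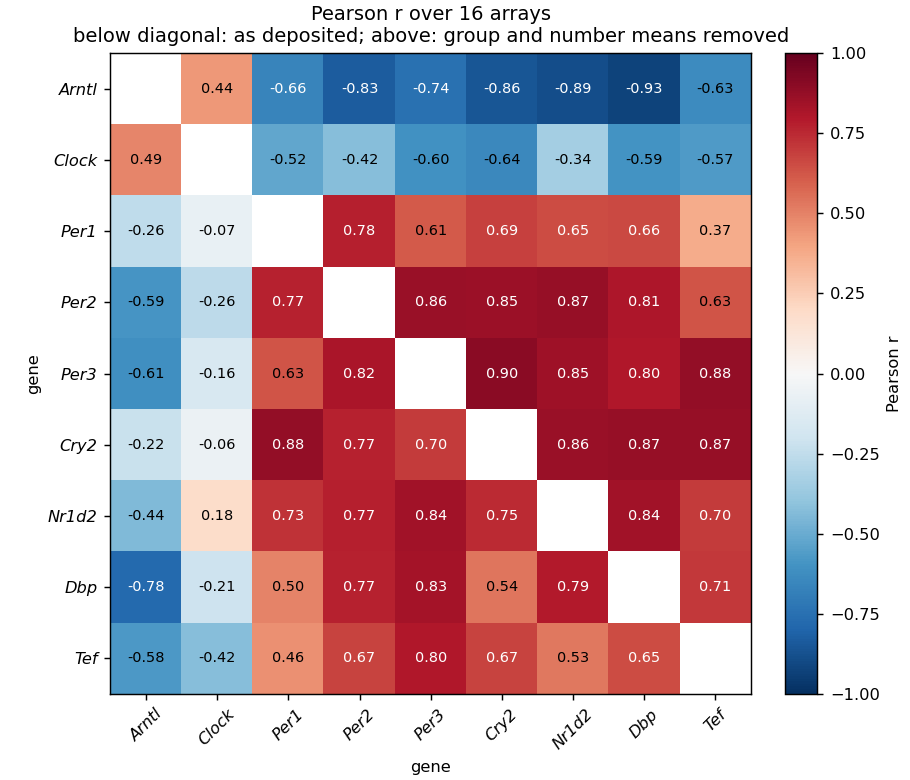
Pearson r of each pair of the 9 clock genes over 16 arrays, below the diagonal as deposited and above it with group and number means removed. Colour and digits give r, from -1 in blue to 1 in red. Arntl was negative with the 7 genes from Per1 to Tef in both, from -0.219 to -0.779 and from -0.629 to -0.929 with the means removed.

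The genes whose pattern was most like that of Dbp or Arntl were listed over the 16 arrays among 8540 genes, those outside the clock genes whose SD was at least the median. Highest with Dbp was Sphk2, a kinase that makes sphingosine 1-phosphate (r = 0.952, Spearman rho 0.956). It was followed by Ciart, a repressor of the clock loop (0.806), Fgfr1, a receptor for fibroblast growth factors (0.805), Hlf, a relative of Dbp and Tef (0.786), and Car11, a carbonic anhydrase relative (0.782). In the order of RefSeq genes Sphk2 and Car11 are the coding neighbours of Dbp on either side, and the annotated span of Sphk2 overlaps that of Dbp. Whether the Sphk2 probes lie in the overlap was not analysed here, so signal of one gene in the probe set of the other was not tested. Lowest with Dbp were Klhl30 (-0.761), Dnlz (-0.734), Ypel2 (-0.723), Slc16a9 (-0.705) and Fbxo32 (-0.669), the last a ubiquitin ligase of muscle wasting.

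Highest with Arntl were Tle1, a corepressor (r = 0.864), Slc25a36, a mitochondrial carrier (0.821), Gtf2ird1 (0.817), 4930523C07Rik (0.800) and Slc66a2 (0.791). Lowest were Ciart (-0.867), Col19a1 (-0.845), Hlf (-0.835), Rgma (-0.732) and Sphk2 (-0.705). Ciart, Hlf and Sphk2 were therefore among the genes most like Dbp and among those most opposite to Arntl. These values describe 16 arrays that share their groups and numbers, and carry no test.

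Other components of the clock were read as a list of 18 genes, of which 16 were measured. For age in controls 6 were higher and 10 lower, with a median of -0.13 beside -0.01 over all genes, and 0 passed an adjusted p of 0.05 by limma. Unadjusted, 1 passed without the block and 3 with it, against 2.12% and 9.64% of all genes. Nfil3, a repressor at D-boxes and so a counterpart of Dbp, differed by 0.57 for age in controls (limma unadjusted p = 0.0431) and by 0.48 over both genotypes (SE 0.18, limma unadjusted p = 0.0183, adjusted p = 0.228 with the block). Its r was 0.657 with Arntl and -0.570 with Dbp. Ciart and Hlf, which follow Dbp, differed by -0.42 and -0.24 for age in controls. Bhlhe41, a repressor also called DEC2, differed by -0.30 (limma with the block, unadjusted p = 0.00408, adjusted p = 0.318). Npas2, a stand-in for Clock, had r = 0.182 with Arntl over all arrays and 0.733 with group and number means removed.

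Genes known as outputs of the muscle clock were a second list, with 14 of 16 measured. For age over both genotypes 7 were higher and 7 lower, with a median of 0.02, and 0 passed adjustment by limma. Unadjusted, 4 passed higher and 1 lower, and 5 and 2 with the block, against 3.52% of all genes without it and 11.7% with it. Pdk4, a kinase that holds back glucose oxidation, differed by 0.67 (SE 0.18, limma unadjusted p = 0.00174, adjusted p = 0.440). Cdkn1a, which encodes the cell cycle inhibitor p21, differed by 0.93 (limma unadjusted p = 0.00552). Coq10b, a protein that binds coenzyme Q, differed by -0.69 (limma unadjusted p = 0.0132). Lonrf3 differed by 0.25 (limma unadjusted p = 0.00694).

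Other gene lists were read beside the age difference of Dbp and Arntl. Glucocorticoid targets were higher in old controls for 12 of 12 measured genes of 14, with a median of 0.35, and over both genotypes for 12 of 12, with a median of 0.41. None of the 12 passed adjustment by limma. Unadjusted, 3 passed over both genotypes and 8 with the block, against 3.52% and 11.7% of all genes. Macrophage markers were higher in old controls for 6 of 6, with a median of 0.39. The log2 of their summed signal ran from 7.61 to 7.88 in young control and 7.57 to 8.11 in young KO muscle. It ran from 7.76 to 8.69 in old control and 7.94 to 8.45 in old KO muscle. The dimmest marker averaged 4.10 in young control and 4.66 in old control muscle. That was below or near the array medians of 4.58 to 4.65, so not all of these markers were clearly above background. Over both genotypes 0 of the 6 passed adjustment by limma, and 1, Mpeg1, passed with the block (adjusted p = 0.0463), where 0.579% of all genes passed. Of 5 fibroblast markers 3 were lower and 2 higher with age over both genotypes. Those past adjustment were 2, both lower, where 0.0585% of all genes passed. They were the collagens Col1a1 (-1.04, limma adjusted p = 0.0290) and Col3a1 (-0.81, limma adjusted p = 0.00275). Col3a1 also fell in KO mice (-0.92, limma adjusted p = 0.0313), while Pdgfra, Dcn and Lum did not pass. The log2 summed signal of the 5 ran from 11.8 to 12.2 in young and from 11.3 to 11.6 in old controls. Counted by gene, however, 3 of the 5 were higher and 2 lower for age in controls, with a median of 0.05. The lower sum was therefore not a fall of most of these markers. The red cell genes Hba-a1 and Alas2 were higher in old controls by 0.33 and 0.87, and their log2 summed signal ran from 11.7 to 12.1 in young and from 12.0 to 12.4 in old controls. Immediate early genes, which respond quickly to stimulation, were split for age in controls, with 7 higher, 6 lower and a median of 0.06. They were higher in old KO than in old control muscle for 13 of 13 measured genes of 14, with a median of 0.50 and 0 past adjustment by limma. At an unadjusted p under 0.05, 5 passed and 8 with the block, against 1.14% and 6.62% of all genes. Their part in the values of the clock genes was not tested.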

How the data were processed

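Quadriceps RNA of 16 mice, 1 per array, was amplified, labelled and hybridised to Affymetrix mouse arrays, per the labels' protocols. The authors deposited log2 signals per probe set, made with RMA and the affy package per the submitters' processing notes, which give no versions. All 16 columns were used. Besides 104 controls the table held 45037 probe sets, of which 28898 carried 1 gene symbol, 551 several and 15588 none. A RefSeq table of GRCm38.p6 held the gene ID of 28689 of the first, and 0 symbols differed. The probe set with the highest mean stood for its gene (17097 genes, 7180 with more than 1 probe set). Dim genes were kept.

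A linear model with 1 mean per group was fitted to all 16 arrays with limma 3.58.1 (R 4.3.3), moderated by empirical Bayes with a trend. Tests were two-sided, and p-values were adjusted by Benjamini-Hochberg over the 17097 genes (threshold 0.05). With group means subtracted, arrays that share a replicate number across groups correlated from 0.289 to 0.780 (24 pairs, median 0.677). Arrays of different numbers had a lower median, -0.455, but a range from -0.764 to 0.725 (72 pairs) that overlapped. Because of the difference in medians, the number of the labels was also fitted as a block. Family, also in the labels, went with age: young mice alone came from C and D, and old mice alone from A and B. With family fitted, age differences therefore rest only on the mice outside these families. Pairs of clock genes were tested with 100000 permutations of Pearson and Spearman coefficients in numpy 2.4.6. Alternatives were the block, the block with family, the mean of probe sets, quantile normalization, genes above the median level, no trend, array weights and leaving out each array. Arntl lay below the median level and so was not in that alternative. The alternatives for the pairs of genes were chosen after seeing the data. The limma comparisons of genotype in young mice and age in KO mice, with and without the block, were tested on simulated data. The tests of gene pairs and of the replicate number, the fit with family and Dixon's ratio were not. Figures were drawn with matplotlib 3.10.9.

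All measured clock genes were named. From each other list the rule admitted at most 4 genes a comparison, ranked by p, and by likeness to Arntl and to Dbp the 5 genes with the highest and the 5 with the lowest r. Genes named with a coefficient alone, such as Npas2, were chosen after their values were seen. Clock genes and lists were chosen with earlier results of these data known.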

Additional observations from a re-analysis of the deposited data

Results flagged for a closer look

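In 4 of 36 sets of 4 mice (9 clock genes in 4 groups) a mouse lay far from the other 3 of its group, by Dixon's ratio of its gap to the group's range. Chance gives this for about 1 in 20 such sets. Arntl stood at 3.71 in young control replicate 4, below the other 3. Per1 stood at 8.32 and Per2 at 6.53 in old control replicate 1, each above the other 3, so that a single mouse accounts for both. Nr1d2 stood at 7.64 in young control replicate 3, below the other 3, and number 3 was also the lowest for Nr1d2 in the other groups.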

How the results depend on the processing

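No clock gene passed in any comparison of groups under any alternative, and the lowest adjusted p over 1442 recomputed differences was 0.311. For age in controls, Dbp stayed lower (-1.82 to -0.996 with single arrays left out), Arntl higher (0.43 to 0.89) and Nr1d2 lower (-0.61 to -0.15). The replicate block with family, which goes with age, gave -2.37, 1.06 and -0.43 for these genes in controls and -1.94, 1.06 and -0.48 in KO mice, and array weights gave -1.16 for Dbp in KO mice. Genotype values were less stable. With the replicate block and family the difference for genotype in young mice was -0.12 for Arntl and 0.053 for Nr1d2, and the interaction was -0.051 for Nr1d2. With the mean of probe sets Nr1d2 was 0.22 for genotype in young mice. With array weights, which gave numbers 3 and 4 weights of 0.311 to 0.779, genotype in old mice was 0.17 for Arntl, -0.051 for Nr1d2 and -0.36 for Dbp, the interaction 0.083 for Arntl and -0.14 for Dbp, and genotype over both ages 0.13 for Arntl, -0.072 for Nr1d2 and -0.29 for Dbp. Leaving out single arrays gave -0.20 to 0.46 (Arntl), -0.82 to 0.078 (Dbp) and -0.25 to 0.12 (Nr1d2) for genotype in young mice. It gave -0.17 to 0.53 (Arntl) and -0.26 to 0.0040 (Nr1d2) for age in KO mice, where Dbp ran from -0.94 to -0.042, and -0.32 to 0.031 (Arntl), -0.16 to 0.30 (Dbp) and -0.0059 to 0.22 (Nr1d2) for genotype over both ages. The cause was not tested.

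The 5 clock genes called by replicate number were 0 with the replicate block and family (53.5% of all genes) and 0 with quantile normalization (43.9% of all genes), and 3 to 8 with single arrays left out, 3 without old control replicate 2 and 8 without old control replicate 4. Pairs of clock genes past the threshold numbered 21, and 15 with the replicate block, 23 with the mean of probe sets, 24 with quantile normalization and 18 to 25 with single arrays left out. The r of Arntl with Dbp lay between -0.946 and -0.696 under these settings. Over all genes, age over both genotypes called 10, against 99 with the replicate block, 1 with family added, 40 with quantile normalization, 22 above the median level, 80 with array weights and 5 to 13 with single arrays left out, 5 without young KO replicate 1. Age in controls called 0, against 8 with the block, 1 with family added, 1 with quantile normalization and 10 with array weights, and age in KO mice 3, against 1 with family, 8 with array weights and 0 to 4 with single arrays left out, 0 without young KO replicate 2, 3 or 4 and 1 without young KO replicate 1. With 4 mice per group the number of arrays limits what could be shown.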

Other observations

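Among the other clock components, Cry1, a partner of Cry2 in repression, had r = 0.675 with Arntl and -0.306 with Dbp over the 16 arrays, the opposite signs to Cry2 (-0.219 and 0.536). Bhlhe40, a repressor also called DEC1, had r = 0.660 with Dbp and -0.250 with Arntl. These values carry no test.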
